A study of Saccharomyces cerevisiae with 36 samples.

Results

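Quiescent yeast cells without Hat1 or without Hat2, the subunits that form the core of the type B histone acetyltransferase, were compared with quiescent wild-type cells. The comparison joined the 4 arrays labelled hat1-del-starved and hat2-del-starved (2 each) and set them against the 2 arrays labelled wt-starved, out of 36 arrays in the series. The members were taken from the array titles alone, and no measured value was used to choose them. Each array hybridized labelled RNA of 1 strain together with a common wild-type reference RNA from a single culture. The 2 arrays of a strain came from independent cultures and had swapped dyes, with the strain in Cy3 on replicate a and in Cy5 on replicate b. Values below are log2 ratios of strain over reference, and a change is the difference between such log2 ratios of 2 strains.

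The groups compared were starved Saccharomyces cerevisiae of the background labelled BY4742. By the methods of the study, the starved strains carried the RITE cassette on histone gene HHT2, a construct that lets Cre recombinase exchange an HA tag for a T7 tag on histone H3. The wild type shared this cassette, the deletion of the HHT1-HHF1 gene pair, the deletion of BAR1 and the hormone-regulated Cre expressed from the TDH3 promoter, so that HHT2 and HHF2 were the only genes for histones H3 and H4. In hat1Δ and hat2Δ the gene HAT1 or HAT2 was replaced by KANMX. The strain hif1Δ (2 starved arrays), which lacks the third subunit, is used as a further comparison. Whether a strain was represented by more than 1 clone is not given in the sources used here. RNA of the starved strains and the reference RNA were prepared by different extraction protocols, which applied to all starved arrays alike. In such bulk RNA, expression in fewer cells and less RNA per cell cannot be told apart.

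Hat1 is the catalytic subunit of the enzyme and acetylates lysines in the tail of newly made histone H4 before the histone is deposited on DNA. Hat2, a WD-repeat protein, binds the histone and raises the activity of Hat1. In the nucleus the histone chaperone Hif1 joins them in the NuB4 complex. In budding yeast Hat1 has been linked to the silencing of genes near telomeres, where silent chromatin depends on histones with unacetylated tails. The paper adds that many such phenotypes appear only with further mutations in the tail of histone H3. None is listed for the strains compared here.

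The probes of the deleted genes matched the labels. HAT1 measured -2.65 and -3.12 on the 2 hat1Δ arrays, against -0.97 and -0.76 on the 2 wild-type arrays. HAT2 measured -2.72 and -1.87 on the 2 hat2Δ arrays, against -0.36 and -0.25 on the wild-type arrays. Neither gene overlapped with wild type in the strain that lacks it, and each stayed close to the wild-type level in the other mutant, where HAT1 was -1.02 and -0.71 in hat2Δ and HAT2 was -0.27 and -0.31 in hat1Δ. HIF1 lay between -0.20 and -0.10 on the 4 mutant arrays, within the range of -0.35 to -0.02 of wild type. In each strain only 1 of the 2 deleted genes is absent, so the pooled change of HAT1 (-1.01) or HAT2 (-0.98) is about the mean of a large drop and none.

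The state of the cells was checked with marker lists. The mean of 8 genes that are high in starved cells was 3.35 to 3.8 on the 4 mutant arrays and 3.52 to 3.86 on the wild-type arrays, and the mean of 8 growth genes was -2.04 to -1.33 in the mutants and -1.90 to -1.46 in wild type. Markers of a cells were high, at 4.09 to 4.69 in the mutants and 4.21 to 4.38 in wild type, and markers of alpha cells were low, at -2.67 to -2.26 in the mutants and -2.52 to -2.48 in wild type. BY4742 is an alpha strain, so on this point the markers went against the label, whereas the methods of the study describe the RITE strains as a cells. A mean of 5 meiotic genes was 0.76 to 0.88 in the mutants and 0.86 to 0.87 in wild type. The ranges of mutants and wild type overlapped for all 5 lists, and limma called 0 of their genes between mutants and wild type.

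Beyond HAT1, 4 named genes and 1 probe with no symbol separated the pooled mutants from wild type. CMK2, which encodes a calmodulin-dependent protein kinase, and TYE7, which encodes a transcription factor that activates glycolytic genes, were lower in the mutants. SOR2, which encodes a sorbitol dehydrogenase, and YCR102C, a gene of a family that resembles quinone oxidoreductases, were higher. In the limma model of all 16 starved arrays, 6 of 6388 yeast probes were called at an adjusted p under 0.05 (0.0939%). Of these, 3 were higher (0.047%) and 3 lower (0.047%), and each had an adjusted p of 0.0368. HAT2 missed this threshold (adjusted p = 0.0527). The calls depended on the model: 0 probes were called without the dye term (the replicate block), with print-tip loess (a normalization within blocks of the array), with only the 6 arrays compared, or with only the 8 starved arrays of hat1Δ, hat2Δ, hif1Δ and wild type. Without wild-type replicate b 0 were called, without wild-type replicate a 20, and without another of the 6 arrays 1 to 3. The study speaks of a change at a fold above 1.7 and a p under 0.01. It made no genome-wide test of its starved cultures, citing their variability, so the counts that follow have no counterpart there. With the adjusted p 0 probes passed in limma, and with the unadjusted p 29 passed (0.454%), among them CMK2, HAT1, HAT2, HXT2 and YIL177C. In all, 416 (6.51%) had an unadjusted p under 0.05, 228 of them higher (3.57%) and 188 lower (2.94%).

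CMK2 was above the reference on every starved array of these strains, but less so in the mutants. Its log2 ratio was 1.31 and 1.16 in hat1Δ and 1.07 and 1.00 in hat2Δ, against 2.21 and 1.96 in wild type. The groups did not overlap, and the change was -0.95 (SE 0.132, n = 4 against 2 arrays, 95% interval -1.24 to -0.65), about equal in hat1Δ (-0.85) and hat2Δ (-1.05). In hif1Δ the log2 ratio was 1.17 and 1.14, and the change of the pooled mutants over hif1Δ was -0.02 (adjusted p = 0.989).

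TYE7 had log2 ratios of 1.69 and 1.08 in hat1Δ and 1.46 and 1.16 in hat2Δ, against 2.16 and 2.02 in wild type. Replicate a was the higher array of all 3 strains, and all 4 mutant arrays lay below both wild-type arrays. The change was -0.74 (SE 0.092, 95% interval -0.95 to -0.54), with -0.70 in hat1Δ and -0.78 in hat2Δ. TYE7 was also lower than both wild-type arrays on all 10 other starved mutant arrays (0.91 to 1.96), which came from hif1Δ, the 2 double mutants with hif1Δ and the 2 mutants of the H4 tail. CMK2 lay below both wild-type arrays on 8 of these 10 arrays and above both on 1, with a median of 1.23. Of these 10 arrays, the 8 of strains other than hif1Δ differ from wild type in the strain signal of an ATG33 spot. They may thus belong to another set of arrays, which the labels do not name. The 2 hif1Δ arrays, like wild type in this spot and from a strain with intact HAT1 and HAT2, were at 1.53 and 0.98 for TYE7.

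SOR2 moved the other way. Its log2 ratio was 0.13 and 0.37 in hat1Δ and 0.08 and 0.33 in hat2Δ, against -0.35 and -0.41 in wild type, so that all mutant arrays were above the reference and both wild-type arrays below it. The change was 0.61 (SE 0.085, 95% interval 0.42 to 0.80), with 0.63 in hat1Δ and 0.59 in hat2Δ. The probe with no symbol, SCAB003472, had nearly the same values on these 6 arrays, differing from SOR2 by at most 0.11, and a change of 0.70 (SE 0.098). SOR2 has a close relative, SOR1, and probes can bind RNA of both, so the level cannot be assigned to 1 of the copies. In hif1Δ SOR2 was at -0.23 and -0.22, between the mutants and wild type. The pooled mutants exceeded hif1Δ by 0.45 for SOR2 (adjusted p = 0.0605) and by 0.54 for SCAB003472 (adjusted p = 0.0516), both short of the threshold.

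YCR102C was the steadiest of the called genes within the mutants, with 0.39 and 0.32 in hat1Δ and 0.35 and 0.37 in hat2Δ. In wild type it was at -0.13 and -0.45. The groups did not overlap, and the change was 0.64 (SE 0.086, 95% interval 0.45 to 0.84), with 0.64 in hat1Δ and 0.65 in hat2Δ. The 2 hif1Δ arrays lay at 0.08 and 0.13. All 4 named genes were above background on every array of these strains, and none was near saturation. SOR2 and YCR102C were dim, with net intensities in wild type of 94 to 129 and 71 to 130. For CMK2 and TYE7 these were 1612 to 2242 and 1628 to 2352. The 2 dim genes fell out when the dimmest 25 percent of probes were excluded.

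**Figure D1:**
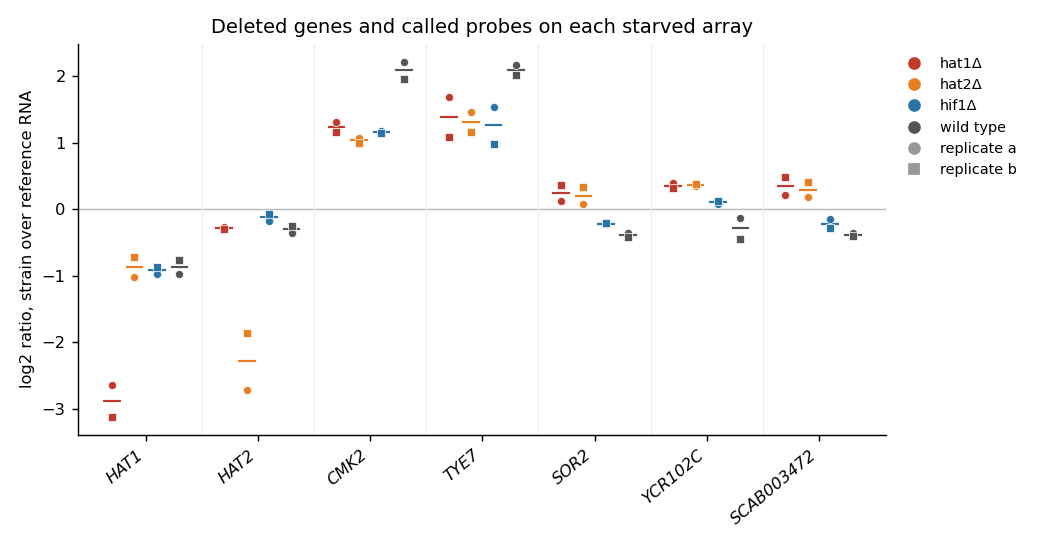
Log2 ratio of strain over reference RNA (y axis) for the deleted genes and the called probes (x axis) on each starved array of hat1Δ, hat2Δ, hif1Δ and wild type, with circles for replicate a, squares for replicate b and a short bar at the mean of the 2 arrays. CMK2 lies between 1.00 and 1.31 in hat1Δ and hat2Δ, against 1.96 and 2.21 in wild type, and SOR2 and YCR102C lie above 0 in these mutants and below 0 in wild type.

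The same genes were also read in growing cells. The growing deletion strains were made in a different strain background without the RITE cassette, so their log2 ratios to the reference are given side by side without a test. CMK2 was at -0.03 and -0.07 in growing hat1Δ and at 0.13 and 0.03 in growing hat2Δ. TYE7 was at 0.00 and -0.20 in growing hat1Δ and at 0.01 and -0.18 in growing hat2Δ. Both genes lay close to the reference there, against a log2 ratio of 1.00 or more on each starved array of these mutants. SOR2 was at 0.08 and 0.08 in growing hat1Δ and 0.19 and 0.14 in growing hat2Δ, against -0.23 and -0.06 in growing hif1Δ. For SOR2, hat1Δ and hat2Δ were thus above hif1Δ, as in starvation. YCR102C was below the reference in growing hat1Δ (-0.25 and -0.41) and hat2Δ (-0.34 and -0.36), on the opposite side from the starved mutants. Growing hif1Δ was at -0.10 and -0.07 for CMK2, -0.08 and -0.19 for TYE7 and -0.31 and -0.36 for YCR102C.

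Several genes came close to the threshold without passing it. YDR541C, which encodes an aldehyde reductase, had a change of 0.84 (adjusted p = 0.0886), with 0.23 and -0.14 in hat1Δ and -0.15 and -0.19 in hat2Δ, against -0.64 and -1.16 in wild type. YNR065C, a gene related to the sorting receptor of the vacuole, had a change of 0.44 (adjusted p = 0.0912), and the uncharacterized YEL073C 0.55 (adjusted p = 0.104). NRT1, which encodes a transporter of nicotinamide riboside, had 0.49 (adjusted p = 0.128). For these 4 genes every mutant array lay above both wild-type arrays, as it did for 6.2% of all probes (below both for 5.75%). Of the genes with the lowest p in the other direction, RTS3, whose product associates with a protein phosphatase, had a change of -0.58, and BDH1, which encodes butanediol dehydrogenase, a change of -0.48. OAR1, of mitochondrial fatty acid synthesis, had -0.29, and ASP3-3, an asparaginase gene with tandem copies, -0.31. These 4 had an adjusted p of 0.203 each. BDH1 measured 0.34 and 0.31 in hat1Δ and 0.32 and 0.34 in hat2Δ, against 0.84 and 0.78 in wild type, a narrow spread within each group.

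Set against wild type singly, each mutant had 1 called probe, that of its own deleted gene. HAT1 fell by 2.02 in hat1Δ (adjusted p = 0.00162), and HAT2 fell by 1.98 in hat2Δ (adjusted p = 0.00274). Each is 0.0157% of the probes. Without wild-type replicate a the counts were 14 in hat1Δ and 18 in hat2Δ, without wild-type replicate b they were 0 and 1, and without hat1Δ replicate a the count in hat1Δ was 2. At an unadjusted p under 0.05 there were 264 probes in hat1Δ (4.13%) and 468 in hat2Δ (7.33%), and since both comparisons use the same 2 wild-type arrays, their lists are not independent. The direct comparison of hat1Δ with hat2Δ holds no wild-type array. It called 2 probes (0.0313%), HAT1 at -2.02 and HAT2 at 2.0 (adjusted p = 0.00127 each), and the next lowest adjusted p was 0.832, while 227 probes (3.55%) had an unadjusted p under 0.05. The 95% interval of the difference between the mutants lay within 1.7-fold either way for 6130 of the 6388 probes (96.0%). For CMK2, TYE7, SOR2, YCR102C and SCAB003472 the difference between hat1Δ and hat2Δ had an adjusted p of 0.997.

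The precision of the pooled comparison bounds what it could have missed. The median SE of a pooled change was 0.0922, and for 6195 probes (97.0%) the 95% interval of the processed ratios lay within 1.7-fold either way. The offset added in background correction shrinks the ratios of dim probes, so a larger change in their RNA is not excluded. The change exceeded 1.7-fold for 30 probes (0.47%), of which 18 probes without a symbol lay between 0.82 and 1.02 at an unadjusted p under 0.05.

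**Figure D2:**
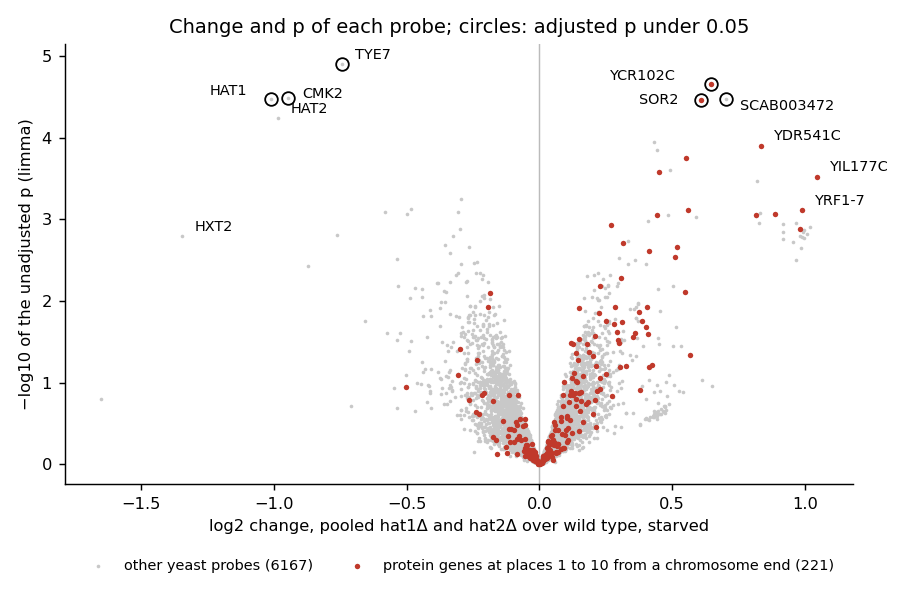
Change of each of the 6388 yeast probes in the pooled hat1Δ and hat2Δ over wild type (x axis, log2) against the unadjusted limma p on a −log10 scale (y axis). Open circles mark the 6 called probes, and the red points, genes at places 1 to 10 from a chromosome end, lie more often to the right of 0 (149 of 221) than to the left.

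Both named genes called higher lie near a chromosome end, so the position of all genes was examined. In the gene order of the RefSeq annotation of the yeast genome, SOR2 is the third protein gene from the end of its chromosome and YCR102C the sixth, whereas TYE7 is number 50 and CMK2 number 151. The list of genes at places 1 to 10 from each of the 32 ends was drawn up after these values had been seen, so its counts are a description and not a test. It holds 320 genes, of which 221 were measured. Of the 92 measured at places 1 to 5, 28 were higher in the pooled mutants at an unadjusted p under 0.05 and 0 were lower. That is 30.4% higher, against 3.57% of all probes (lower: 2.94%), and the median change was 0.11, against -0.0004 over all probes. At places 6 to 10, 17 of 129 genes were higher (13.2%) and 3 were lower (2.33%), with a median change of 0.04. Farther inside the chromosomes, at place 11 and over, 119 of 5052 genes were higher (2.36%) and 158 were lower (3.13%), with a median of -0.01.

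Sample by sample, all 4 mutant arrays lay above the wild-type array of the same dye orientation for 39 of the 92 genes at places 1 to 5 (42.4%) and below it for 3. Among all probes the shares were 12.1% above and 11.2% below. The median log2 ratio of the genes at places 1 to 5 was 0.19 and 0.28 in hat1Δ and 0.26 and 0.23 in hat2Δ, against 0.16 and 0.08 in wild type. The mutant arrays were thus above both wild-type arrays, by a small amount in the median. In growing cells the same median was -0.03 and -0.04 in hat1Δ and -0.03 and -0.02 in hat2Δ.

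By the place assigned to each probe, higher values fell at many ends. Of the 32 ends, 28 had a median change above 0 and 21 had at least 1 gene higher at an unadjusted p under 0.05, with up to 4 such genes at the right ends of chromosomes III, XII and XVI. Only 3 ends had a gene that was lower. These counts by end include gene families, so RNA of 1 copy can enter at more than 1 end, and they were not repeated without families. Subtelomeric genes come in families of near-identical copies whose probes can bind each other's RNA. The count over all ends together was therefore also made without the 2 outermost places and without families such as YRF1, PAU, COS, HXT, IMA, SNO, SNZ, DDI and SOR. There 19 of 150 genes were higher (12.7%) and 3 were lower. The families were taken by gene symbol, so relatives known only by a systematic name, such as YCR102C and YLR460C, remained among the 150. The share of higher genes at places 1 to 10 was 16.5%, 21.7%, 38.7% and 14.6% over 4 equal classes of probes from the dimmest to the brightest, against 1.76%, 2.47%, 2.05% and 2.95% at place 11 and over.

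Of single genes near the ends, only SOR2 and YCR102C passed the adjusted threshold. YIL177C, a gene for a helicase of the Y′ element (a repeat next to the telomere), was at 1.73 and 2.02 in hat1Δ and 1.88 and 2.18 in hat2Δ, against 1.28 and 0.53 in wild type, with a change of 1.05 (adjusted p = 0.137). Its relative YRF1-5 was at 2.50 and 2.48 in hat1Δ and 2.34 and 2.86 in hat2Δ, against 1.98 and 1.15 in wild type, a change of 0.98 (adjusted p = 0.225). In both the wild-type array of replicate b was the lower. YRF1-7, of the same family, had a change of 0.99, which became -0.18 under print-tip loess. SNO2 and SNZ3, which act in vitamin B6 synthesis, had changes of 0.89 and 0.82. By symbol they lie on chromosomes XIV and VI, but both belong to families of near-identical copies. Their levels cannot be assigned to 1 copy or to 1 of these ends. SNO2 was at 0.72 and 0.78 in hat1Δ and 0.06 and 0.67 in hat2Δ, against -0.12 and -0.54 in wild type. YLR460C, which belongs to the same family as YCR102C, had a change of 0.56, and IMA4, an isomaltase gene, 0.44. ARN2, a siderophore transporter gene, had 0.55. Of the measured genes, 3 were lower at an unadjusted p under 0.05, YJL213W (-0.30), NBP1 (-0.19) and BSC5 (-0.19).

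**Figure D3:**
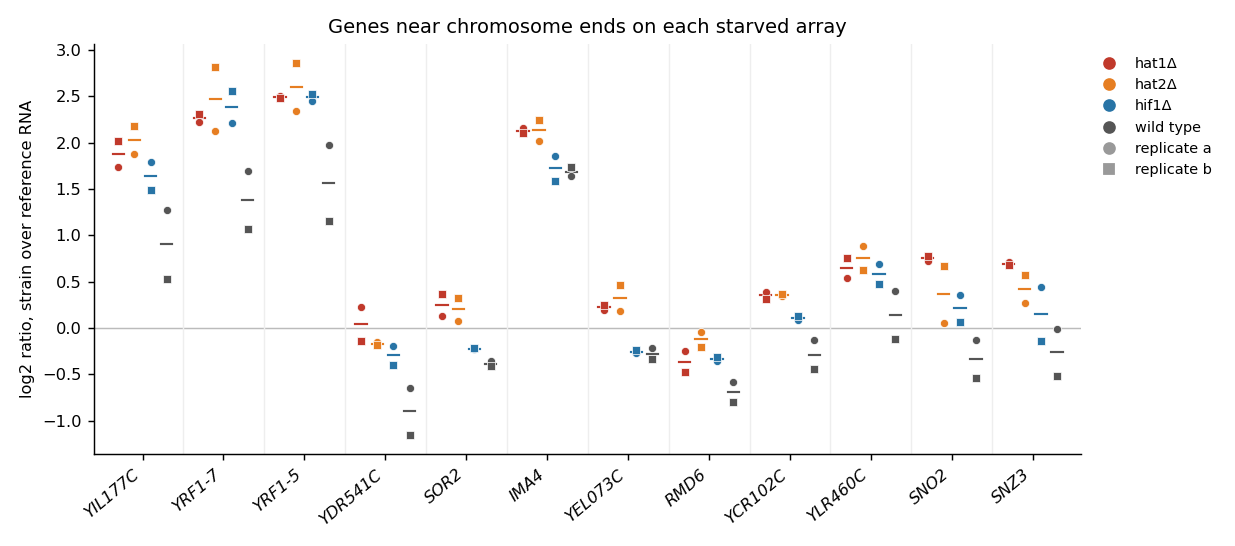
Log2 ratio of strain over reference RNA (y axis) of 12 genes at places 1 to 10 from a chromosome end (x axis) on each starved array of hat1Δ, hat2Δ, hif1Δ and wild type, with circles for replicate a, squares for replicate b and a bar at the mean. The genes were chosen after their values were seen, and YIL177C, for example, lies between 1.73 and 2.18 in hat1Δ and hat2Δ, against 0.53 and 1.28 in wild type.

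The same list was counted in the other comparisons. Against wild type, 32 of the 221 genes at places 1 to 10 were higher and 2 lower in hat1Δ, where 2.19% of all probes were higher and 1.94% lower. In hat2Δ 38 were higher and 4 lower, where 3.93% of all probes were higher and 3.4% lower, and both mutants were set against the same wild-type arrays. Between hat1Δ and hat2Δ, 1 was higher and 3 were lower, against 2.18% and 1.38% of all probes. Against hif1Δ, where no wild-type array enters, 43 were higher in the pooled hat1Δ and hat2Δ (19.5%) and 4 were lower, compared with 6.31% higher and 3.12% lower of all probes and 4.95% higher at place 11 and over. Without the 2 outermost places and the families taken by symbol, 16 of 150 were higher than in hif1Δ (10.7%). At the adjusted threshold 11 of the 221 genes were called higher, mostly PAU and DDI genes, and 1 of these 150. Among all probes 0.407% were called higher. In hif1Δ against wild type, 15 of the 92 genes at places 1 to 5 were higher and 15 were lower (16.3% each way). Of all probes, 4.2% were higher and 6.95% lower. Called lower at the adjusted threshold were 7 of the 221 genes at places 1 to 10, against 21 of all 6388 probes.

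The other starved mutants share the wild-type arrays as well, but differ from them in the ATG33 spot, so their counts are given side by side. At places 1 to 5, 22 of 92 genes were higher (23.9%) and 2 lower in hat1Δhif1Δ, where 4.71% of all probes were higher and 6.07% lower. In hat2Δhif1Δ 23 were higher (25%) and 3 lower, where 5.68% of all probes were higher and 5.6% lower. Both double mutants had more higher than lower genes there. They lack HIF1 as well as HAT1 or HAT2, and the part of each deletion was not tested. In the H4 mutant with lysines 5 and 12 changed to glutamine, 8 were higher and 9 lower, against 8.77% and 8.02% of all probes. With the same lysines changed to arginine, 5 were higher and 19 lower, against 10.4% and 11.7% of all probes.

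The count of 45 genes higher in the pooled mutants at places 1 to 10 became 18 when wild-type replicate b was left out, with 153 probes at an unadjusted p under 0.05 in all.

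**Figure D4:**
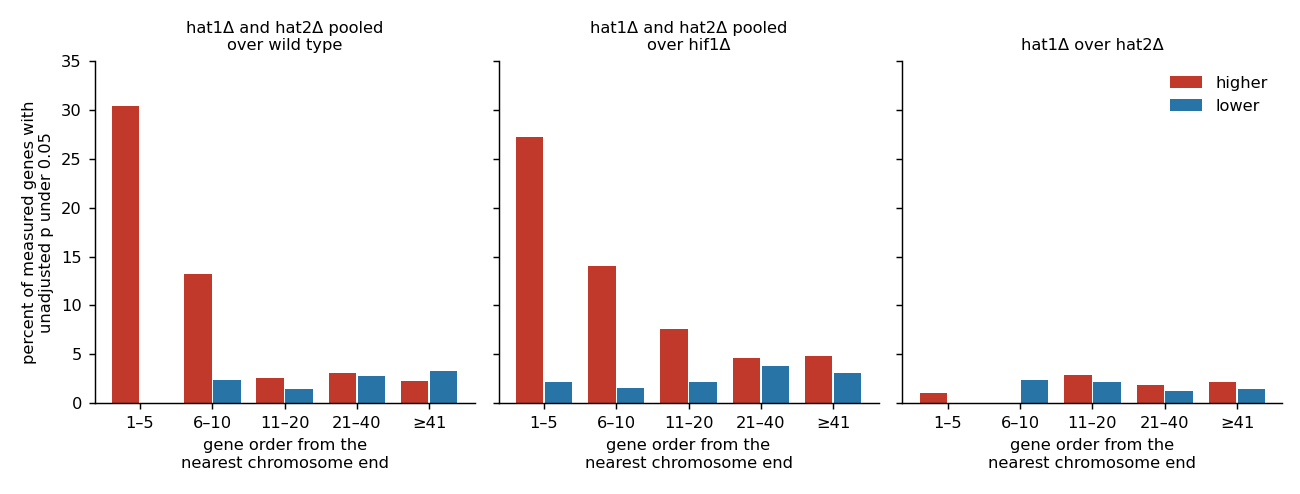
Percent of measured protein genes with an unadjusted p under 0.05 (y axis), higher in red and lower in blue, by place from the nearest chromosome end (x axis), for the pooled hat1Δ and hat2Δ over wild type, the same over hif1Δ, and hat1Δ over hat2Δ. At places 1 to 5 the share of higher genes is 30.4% over wild type and 27.2% over hif1Δ. Families with near-identical copies, such as the PAU genes, are included.

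Compared with starved cells without Hif1, which acts with Hat1 and Hat2 in the nucleus, the pooled mutants differed in 28 probes (0.438%), and 602 (9.42%) had an unadjusted p under 0.05. Of the called probes, 26 were higher (0.407%) and 2, HAT1 and HAT2, were lower (0.0313%). Leaving out hif1Δ replicate a gave 154 called probes, hif1Δ replicate b 8, hat1Δ replicate b 15 and hat2Δ replicate a 13. HIF1 itself was among those higher. DDI2 and DDI3, near-identical genes for cyanamide hydratases whose probes cannot be told apart, were both higher. DDI3 was at 1.91 and 1.65 in hat1Δ and 1.87 and 1.87 in hat2Δ, against 0.57 and 0.11 in hif1Δ, a change of 1.48 (adjusted p = 0.00137). Wild type lay at 1.41 and 1.22, nearer to hat1Δ and hat2Δ. DDI2 had a change of 1.34 (adjusted p = 0.000995) and the same order of strains.

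The PAU genes, a family of seripauperins with near-identical sequences, made up the largest group. Of 16 measured, 11 were called higher than in hif1Δ, where 0.407% of all probes were, with a median change of 0.71 over the 16. Their median log2 ratio was 1.49 and 1.67 in hat1Δ and 1.64 and 1.56 in hat2Δ, against 1.14 and 0.99 in hif1Δ. Wild type had medians of 1.59 and 1.44, which overlapped with the mutants, and against wild type limma called 0 PAU genes, with 5 higher at an unadjusted p under 0.05, where 3.57% of all probes were. Since copies cross-hybridize, the 11 genes are not 11 separate measurements, and 11 of the 16 measured PAU genes also belong to the genes at places 1 to 10 from an end. PAU7 had a change of 0.98, and HPF1, which encodes a cell wall mannoprotein, one of 1.18 (adjusted p = 0.0145).

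Of 15 measured genes of a hexose transport list, 2 were called higher than in hif1Δ, HXT1 and HXT2, where 0.407% of all probes were. HXT2, a high-affinity transporter induced at low glucose, was at 0.19 and -0.59 in hat1Δ and -0.80 and -0.28 in hat2Δ, against -2.21 and -2.14 in hif1Δ, a change of 1.81 (adjusted p = 0.0452). In wild type it was higher still, at 0.84 and 1.11, and the change over wild type was -1.35 (SE 0.313, adjusted p = 0.227). All 10 arrays of the other starved mutants were below both wild-type arrays for HXT2, from -2.21 to 0.02. The low-affinity transporter gene HXT1 was higher than in hif1Δ by 1.03 (adjusted p = 0.0476) and HXT17, which was not on the list, by 0.81.

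**Figure D5:**
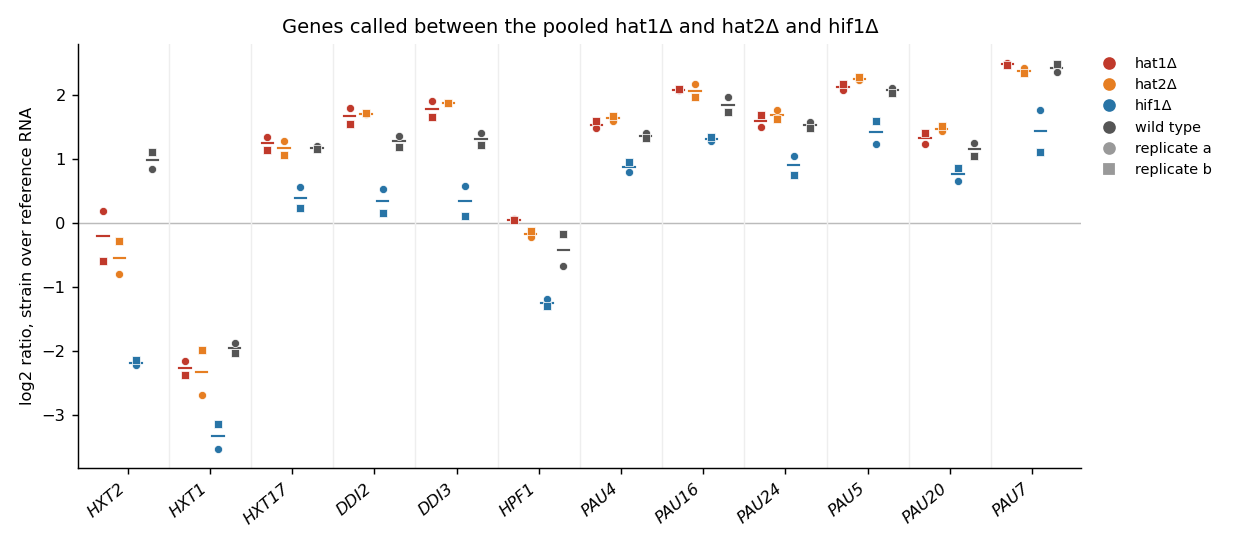
Log2 ratio of strain over reference RNA (y axis) of 12 genes called between the pooled hat1Δ and hat2Δ and hif1Δ (x axis) on each starved array, with circles for replicate a, squares for replicate b and a bar at the mean of the 2 arrays. For DDI3 the 4 arrays of hat1Δ and hat2Δ lie between 1.65 and 1.91, against 0.11 and 0.57 in hif1Δ, while wild type lies at 1.22 and 1.41.

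The genes of the histones that the enzyme acts on did not pass the test. HHT2, the tagged H3 gene, was at 0.15 and -0.02 in hat1Δ and 0.12 and 0.07 in hat2Δ, against 0.11 and 0.15 in wild type, a change of -0.05 (95% interval -0.29 to 0.19). HHF2, the only H4 gene of these strains, had a change of 0.18 (95% interval -0.11 to 0.47). The groups did not separate for HHT2. Probes of the deleted genes HHT1 and HHF1 had changes of 0.15 and 0.12 and cannot be read as their own RNA, since near-identical copies remain. Of the other loci at which the study followed histone exchange, ADH2 had a change of 0.18 and ADH1 of -0.05, and neither was called. IMD1 was not analysed here.

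Other chromatin genes were measured as lists. Of 15 genes of other histone acetyltransferases, 0 were called and 2 were lower at an unadjusted p under 0.05 (2.94% of all probes), among them ADA2, a subunit of the SAGA acetyltransferase, with -0.33. ADA2 was at 0.05 and -0.01 in hat1Δ and 0.03 and -0.03 in hat2Δ, against 0.45 and 0.23 in wild type. The median change was -0.03 for this list, 0.03 for 17 genes of deacetylases and silencing, and 0.01 for 17 histone assembly factors, where ASF1, a chaperone of H3 and H4, had -0.33 and RTT109, an H3 acetyltransferase, 0.18. None of these medians lay far from the -0.0004 of all probes. The neighbours of the deleted genes were not called either. SNF8, of an endosomal sorting complex, lies next to HAT1 and had a change of -0.41 in hat1Δ (adjusted p = 0.536) and of -0.03 in hat2Δ. POL5, next to HAT2, had 0.06 in hat1Δ and 0.14 in hat2Δ.

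Among lists of metabolism and growth, limma called 0 genes. At an unadjusted p under 0.05, where 2.94% of all probes were lower, 5 of 28 autophagy genes were lower, 4 of 26 genes under nitrogen catabolite repression and 5 of 66 genes of mitochondrial ribosomal proteins. The autophagy genes had a median of -0.09, and 11 of the 28 were below wild type on all 4 arrays, as were 11.2% of all probes. The lowest was ATG15, a vacuolar lipase, at -0.34, with 0.33 and 0.01 in hat1Δ and 0.30 and 0.11 in hat2Δ, against 0.54 and 0.50 in wild type. ATG17, ATG16, ATG27 and ATG29 had changes of -0.27 to -0.23. Of the nitrogen-regulated genes, GAP1, the general amino acid permease, had -0.54. The 15 genes of phosphate starvation had a median of -0.14, with 7 below wild type on all 4 arrays (11.2% of all probes) and PHO81 at -0.27. The 66 mitochondrial ribosomal proteins had a median of -0.04 with 16 below wild type on all 4 arrays, and 126 cytoplasmic ribosomal proteins a median of 0.04. The 26 genes of G1/S and DNA replication had a median of 0.09, with 24 above 0 (49.9% of all probes). In 22 stress genes the median was -0.02, where the heat shock genes went both ways, with 0.48 for HSP26 and -0.49 for SSA3. No gene of these lists passed the adjusted threshold.

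The arrays were of like quality. Strain signal over local background had a median of 5.34 to 12 on the arrays of hat1Δ, hat2Δ and wild type, lowest on hat2Δ replicate b, and replicates a and b of a strain had correlations of 0.962 to 0.979 over probes. In the strain channel, a spot for ATG33 was at background on all 8 arrays of hat1Δ, hat2Δ, hif1Δ and wild type. It was 12.1 to 37.4 times the background on the 8 other starved arrays. Those were the arrays of the double mutants and H4 mutants. The labels name no set or batch of arrays, and whether this split lies in the arrays or in the strains was not tested. The day of growth of each culture is not given in the sources used here, and its part in the results was not tested.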

How the data were processed

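RNA of 36 strain samples was measured on dual-channel oligonucleotide arrays against a common reference RNA. For each array the authors deposited uncorrected scanner intensities, foreground and local background, of 15552 spots. The authors also deposited log2 ratios normalized within arrays (limma 2.12.0 by the submitters' processing notes), used here as an alternative. A further table holds the authors' own log2 changes and p-values of each strain, and it was not used. In these files 0 sample columns were left unused.

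Background was corrected by normexp at an offset of 50, and each array then had a loess normalization in which control spots had weight 0. The packages were limma 3.58.1, jsonlite 2.0.0 and statmod 1.5.0 under R 4.3.3. The 2 spots of each of 6388 yeast probes were averaged, and ratios were turned to strain over reference by the dye labels. Scanner and deposited ratios correlated at 0.889 to 0.917 on the 6 arrays compared. Of the probes, 5326 have 1 symbol and 1062 none, and for 11 symbols with 2 probes the brighter was used. Of the symbols, 5313 were found in the RefSeq table (R64), used for names and gene order only.

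The 16 starved arrays were fitted in limma by strain with a dye term, which equals the replicate letter, with Benjamini-Hochberg adjustment over all probes and calls at an adjusted p under 0.05. The scripts were tested on simulated data. A probe was above background at 2 SDs over its local background. Replicates were independent cultures. The p-values rest on the spread between replicates pooled over all 8 starved strains, after the dye term, and not on that of the compared strains alone. The number of arrays limits the precision.

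Genes were named by rule: the deleted genes and HIF1, then called probes with 1 symbol whose 4 mutant arrays lay on the same side of wild type and where each mutant had at least 50 percent of the pooled change, filled up to 6 a direction with uncalled probes of the lowest p. Genes near chromosome ends and PAU genes were named after their values were seen. The members and gene lists were chosen with earlier results of these data known. Alternatives were no replicate block, print-tip loess, no background correction, centring on the median, exclusion of the dimmest 25 percent of probes, fewer or all 36 arrays in the fit, the deposited ratios, and leaving out each array.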

Additional observations from a re-analysis of the deposited data

Results flagged for a closer look

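HAT1 and HAT2 differed between the mutants in the direct test of hat1Δ against hat2Δ in limma. HAT1 was at -2.65 and -3.12 in hat1Δ and at -1.02 and -0.71 in hat2Δ, a difference of -2.02, and HAT2 was at -0.27 and -0.31 in hat1Δ and at -2.72 and -1.87 in hat2Δ, a difference of 2.0. Each is the gene deleted in one of the strains. With groups of 2 arrays, no array could be checked as an outlier of its own group.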

How the results depend on the processing

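The counts of called probes rested on the shared estimate of the spread. With only the arrays of the groups compared, or only the 8 starved arrays of hat1Δ, hat2Δ, hif1Δ and wild type (added after the data were seen), 0 probes were called in each of the 5 comparisons, hat1Δ against hat2Δ included. With all 36 arrays the counts were 50 for the pooled mutants over wild type (the 6 called probes among them), 16 for hat1Δ, 62 for hat2Δ and 226 over hif1Δ, with 9 past the study's threshold. The pooled count was also 0 with print-tip loess. The 6 called probes were 3 higher and 3 lower, against 1 and 3 with median centring, 1 and 4 without dim probes and 5 and 3 with the deposited ratios. Median centring gave 3 for hat1Δ, 2 for hat2Δ and 2 past the study's threshold, and leaving out dim probes gave 3 for hat2Δ. Leaving out 1 array gave 0 to 20 for the pooled mutants over wild type, 0 to 2 past the study's threshold, 0 to 14 for hat1Δ, 1 to 18 for hat2Δ, 2 to 3 between the mutants and 8 to 154 over hif1Δ.

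The replicate letter also marks the dye orientation. Deviations from the strain means correlated over 0.1 in 25 of 28 pairs of starved groups (median 0.50). Of hat1Δ, hat2Δ and wild type, 1 of 3 pairs did (-0.22 to 0.68), and hat1Δ was at -0.22 with each of the others. The letters were thus not taken to pair cultures. The dye term nevertheless acts as a block on the letter, and it takes out 1 shift common to all starved strains. The fit with no replicate block called 0 probes for the pooled mutants over wild type and 22 over hif1Δ, and it left the other counts as they were.

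Of 1325 values of 90 named genes under the alternatives, 0 called values turned their direction, 60 lost and 32 gained the call, and 37 uncalled values changed sign. The change of CMK2 ranged from -1.06 to -0.79, of TYE7 from -0.88 to -0.59, of SOR2 from 0.52 to 0.69 and of YCR102C from 0.54 to 0.75, and they were called in 3 of 15, 7 of 15, 3 of 14 and 5 of 14 alternatives. With all 6 compared arrays kept, 25 to 53 genes at places 1 to 10 from a chromosome end were higher and 0 to 6 lower. The 25 came without dim probes, where fewer genes were tested. When single arrays were left out, the median change of these genes was 0.049 to 0.091. The count of all probes at an unadjusted p under 0.05 moved with the alternative too and is not given beside these.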
